A study of Mus musculus with 5 samples.

Results

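The smooth muscle contractile genes are a set of 10 genes whose products build or regulate the contractile apparatus of smooth muscle: Acta2, Actg2, Tagln, Cnn1, Cnn2, Myl9, Mylk, Cald1, Myh11 and Actn1. They were chosen by symbol, with earlier results of these data known. All 10 were found among the 25415 genes of the deposited tables, through 13 RefSeq transcripts. Their levels were compared between STO cells, an established line of SIM mouse embryonic fibroblasts used after more than 30 passages, and neural stem cells (NSCs), primary cells from embryonic mouse cortex cultured for 5 to 8 passages. Both carry the strain label C57BL/6 and neither carries a transgene or a treatment by its labels. The study describes STO cells as from SIM mouse embryos and resistant to thioguanine and ouabain, so a shared strain cannot be assumed. RNA-seq was available for 2 NSC and 3 STO replicates. STO cells were grown in DMEM with serum, and NSCs on poly-ornithine and laminin in a neural basal medium with EGF, bFGF, heparin and B27. Cell type, medium, passage number, genetic background and the use of a line against primary cells therefore cannot be told apart. STO is 1 cell line, and nothing in the labels says that the replicates were separate cultures, so the p-values measure only the spread between these samples.

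In smooth muscle, a thick filament of myosin pulls on thin filaments of actin, and the signal to contract reaches the myosin rather than the actin: calcium and calmodulin switch on a kinase that phosphorylates the regulatory light chain of myosin. Calponin and caldesmon sit on the thin filament and restrain the myosin, and alpha-actinin anchors the filaments. Most of these genes are known targets of serum response factor (SRF), which binds a DNA element named the CArG box together with its coactivators myocardin and the myocardin-related transcription factors. The same genes are also part of the stress fibers of fibroblasts and myofibroblasts, so several of them are markers of both cell types.

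STO cells had higher levels of 5 of the 10 genes (Tagln, Acta2, Actn1, Cnn2 and Cald1) and a lower level of 1 (Myl9), at an adjusted p under 0.05 in limma on log2(FPKM + 1). FPKM divides the fragments of a transcript by its length and by the depth of the library, so levels of different genes can be set side by side. The other 4 (Mylk, Cnn1, Myh11 and Actg2) had a mean FPKM under 1 in both cell types and were not tested. Differences between these cell types were the rule, since of 12293 genes tested 41.9% were higher and 43.7% lower in STO cells. With no minimum FPKM, where all 10 genes entered the test, 6 were higher, 3 lower and 1 not past the threshold, against 33.4% and 37.0% of 17725 genes. In size, on the log2(FPKM + 1) scale, 198 tested genes had a larger rise than Tagln, 213 a larger rise than Acta2 and 244 a larger rise than Actn1, and 558 and 700 lay above Cnn2 and Cald1. The difference of Tagln, and so its place, depends on the pseudocount, because its NSC level is a listed 0. Tagln reached the minimum FPKM in STO cells alone, and the other 5 tested genes reached it in both cell types. A gene that reaches the minimum in 1 cell type alone had to differ to be tested, so its call is a description; besides Tagln, this holds for Tagln3, Myh14, Actn3, Hey2, Ppp1r14c, Filip1l, Kcnma1, Cacna1c and Trpc1 and for most of the tested cell type markers.

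**Figure D1:**
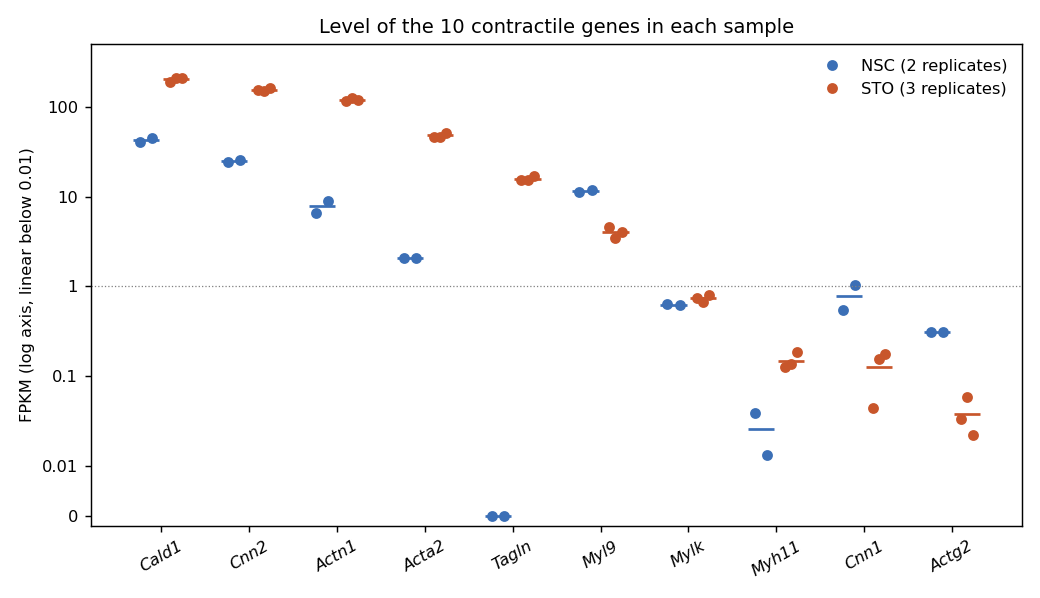
FPKM of each of the 10 contractile genes in each sample, on a log axis that is linear below 0.01; points are samples, short bars are means of the 2 NSC or 3 STO replicates, and the dotted line is an FPKM of 1. Cald1, Cnn2, Actn1, Acta2 and Tagln lie higher in STO cells, Myl9 lies lower, and Mylk, Myh11, Cnn1 and Actg2 have group means under 1 in both cell types.

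The order of the levels differed between the cell types. In STO cells, mean levels fell from Cald1, Cnn2, Actn1 and Acta2 through Tagln and Myl9 to Mylk, and Myh11, Cnn1 and Actg2 came last. In STO cells the replicate ranges of Myh11 and Cnn1 overlapped, as did those of Cnn1 and Actg2, so the order of these neighbors was not separated. In NSCs the order was Cald1, Cnn2, Myl9, Actn1, Acta2, Cnn1, Mylk, Actg2, Myh11 and Tagln, with overlapping ranges for Cnn1 and Mylk. Cald1 and Cnn2 thus led in both cell types, whereas Tagln moved from listed at 0 in NSCs to the fifth place in STO cells. Among all 25415 genes, Cald1 ranked 272 and Cnn2 374 by mean level in STO cells, against 1957 and 3321 in NSCs.

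The libraries carried the markers of their labels. The 5 NSC markers given here (Nes, Sox2, Pax6, Olig2 and Fabp7) were lower in STO cells, where 4 of them were listed at 0 in every replicate, and their summed FPKM was 3772 to 3985 in NSCs and 0.0380 to 0.0724 in STO cells. Of 7 fibroblast markers, 6 were higher in STO cells and Vim was lower, except under quantile normalization, where Vim did not pass the test and its difference was 0.02. Of 6 markers of differentiated smooth muscle, which include Myh11 and Actg2, only Smtn was tested (13.6 ± 0.698 in NSCs and 17.4 ± 0.229 in STO cells, SD); Myocd was listed at 0 in all 5 samples, Lmod1 reached at most 0.0810 and Des at most 0.256. The labels name no smooth muscle, and apart from Smtn the markers of this list had mean FPKM under 1 in both cell types. Summed pericyte markers were 32.2 to 34.0 in NSCs and 6.45 to 6.89 in STO cells. Most of each sum was Cspg4 (mean 25.6 in NSCs and 4.30 in STO cells) and Mcam (7.13 and 2.37). Rgs5 and Kcnj8 had means under 1 in both cell types, and Abcc9 was listed at 0 in every sample. Summed skeletal and cardiac muscle markers were 0.173 to 0.599 in NSCs and 1.54 to 2.08 in STO cells. Endothelial markers were 0.452 to 0.503 and 0.133 to 0.237, and astrocyte markers 64.5 in both NSC replicates and 0.150 to 0.219 in STO cells. In NSC replicates 1 and 2, Aldh1l1 was 47.0 and 45.7, Gfap 15.9 and 16.9, and Aqp4 1.60 and 1.83. Gfap was a negative control for NSCs in the study. The part of other cell types in the levels below was not tested. The fragments implied by the deposited confidence intervals, which are too low for genes with several transcripts, came to 20587283 and 22271895 in the NSC replicates and 15223341 to 21952753 in the STO replicates, and replicates correlated across genes with Pearson's r of 0.994 (NSC) and 0.995 to 0.996 (STO).

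Promoter windows of RefSeq (GRCm38.p6), from 250 bases before to 50 bases after a start of transcription, were searched for elements of muscle genes on both strands. The CArG box is a pair of C, then 6 bases of A or T, then a pair of G, and a relaxed form allowed 1 of the 6 core bases to be anything; each strict match is also a relaxed match. MCAT, bound by TEAD factors, was searched as CATTCC and a TATA box as TATAAA. Windows were found for 7 of the 10 genes, 8 windows in all because Cald1 has a pair of starts. In the sequences printed with each gene, the 250 bases before the start are given 5′ to 3′ along the gene's own strand, matches are in capitals, and coordinates are those of mm9 (NCBIM37), where each window was found exactly once. They are shown for each gene that was tested and had a window, with or without a match.

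Acta2 encodes smooth muscle alpha-actin, the actin of vascular smooth muscle and of myofibroblast stress fibers. Its transcript NM_007392 lies on the minus strand at chr19:34314826-34329863 (mm9), and the annotation gives the gene 9 exons. FPKM was 2.06 and 2.09 in NSC replicates 1 and 2, and 46.3, 46.2 and 51.2 in STO replicates 1, 2 and 3. Every STO replicate was far above both NSC replicates, and the means of 2.08 ± 0.0163 (SD, n = 2) and 47.9 ± 2.83 (SD, n = 3) differed 23.1-fold. The difference on the log2(FPKM + 1) scale was 3.99 ± 0.064 (SE; limma, adjusted p = 1.96e-08). The Acta2 promoter held a pair of relaxed CArG boxes, 84 and 34 bases before the start, and an MCAT on the opposite strand 146 bases before it (chr19:34329864-34330113, minus strand).
Acta2: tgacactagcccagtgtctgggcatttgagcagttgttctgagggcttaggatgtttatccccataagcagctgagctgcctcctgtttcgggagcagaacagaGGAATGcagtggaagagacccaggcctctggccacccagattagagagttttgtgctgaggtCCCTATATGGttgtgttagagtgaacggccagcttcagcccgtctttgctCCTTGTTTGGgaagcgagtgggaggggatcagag

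Actg2 encodes smooth muscle gamma-actin, the actin of enteric smooth muscle, and lay the other way from Acta2 at a much lower level. Its transcript NM_009610 lies on the minus strand at chr6:83462903-83486245. FPKM was 0.314 and 0.309 in the NSC replicates and 0.0337, 0.0588 and 0.0221 in the STO replicates. The ranges did not overlap, but the STO values rested on about 1.00, 1.99 and 1.00 fragments, against 13 and 14 in NSCs. Both group means were under 1, so Actg2 was not among the genes tested. Among the 17725 genes above 0 in a sample, fitted with no minimum, its difference was -0.34 (limma, adjusted p = 7.02e-05).

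Both genes were a small part of the actin pool. The cytoplasmic actins Actb and Actg1 made up nearly all actin FPKM in every sample, and Acta2 rose from 0.0800% and 0.0845% of it in the NSC replicates to 1.59%, 1.57% and 2.12% in the STO replicates. Within the pool, Actb went from 51.9% ± 3.03 to 77.4% ± 0.575 and Actg1 from 48.0% ± 3.02 to 20.9% ± 0.291 (SD). The summed actin FPKM was 2525 ± 77.0 in NSCs and 2757 ± 298 in STO cells, with overlapping ranges. This overlap holds for FPKM as deposited and can depend on the scaling. The FPKM of all transcripts summed to 442905 and 446393 in NSCs and to 385485 to 399970 in STO cells. Acta1, the skeletal actin, did not exceed 0.0898 in any sample, and Actc1, the cardiac actin, was 0.588 and 0.557 in NSCs and listed at 0 in STO cells. Actin genes are alike in sequence: 0.404% of the 50-base stretches of the Acta2 transcript were also present in another gene, Actg1, and 0 of those of Actg2 were. How much of the Acta2 level comes from fragments of other actins was not tested.

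Transgelin (Tagln, also known as SM22-alpha) is a calponin-like protein that binds actin filaments and is an early marker of the smooth muscle lineage. NM_011526 lies on the minus strand at chr9:45737711-45744141 and has 5 exons in the annotation. Tagln was listed at 0 in both NSC replicates, and its FPKM was 15.3, 15.3 and 16.9 in STO replicates 1, 2 and 3. The groups did not overlap, and no fold is given, since an exact 0 in these tables can be a failed estimate. The deposited status of Tagln was OK in every sample. The STO mean was 15.8 ± 0.897 (SD, n = 3), from 437, 487 and 651 fragments. The difference was 4.07 ± 0.062 (SE; limma, adjusted p = 1.69e-08), a value set by the pseudocount because the NSC level is a listed 0: with a pseudocount of 0.1 it was 7.31.

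The other transgelins were lower in STO cells. Tagln2, the broadly expressed transgelin, fell from 336 ± 48.6 to 184 ± 2.51, and Tagln3, the neuronal form, from 35.1 ± 1.14 to 0.0127 ± 0.0220 (SD); the adjusted p of Tagln2 was 0.000177 in limma. The summed transgelin FPKM in STO cells was 0.537 of that in NSCs. Tagln held 7.58%, 7.76% and 8.47% of the family in the STO replicates and 0 in NSCs, and Tagln3 held 8.83% and 10.2% in NSCs and at most 0.0189% in STO cells. The STO value of Tagln3 rested on 1.00 implied fragment in replicate 1 and a listed 0 in replicates 2 and 3.

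Calponins bind actin and slow the myosin ATPase. Cnn1, the form of differentiated smooth muscle, and Cnn2, a form found also in fibroblasts and immune cells, differed in opposite directions. Cnn2 (NM_007725, plus strand, chr10:79451345-79458145, 7 exons) was 24.2 and 25.7 in the NSC replicates and 155, 149 and 161 in the STO replicates. The groups were well apart, with a 6.21-fold higher mean in STO cells (25.0 ± 1.02 against 155 ± 6.14, SD). Its difference was 2.59 ± 0.059 (SE; limma, adjusted p = 9.17e-08). The Cnn2 promoter held a strict CArG box, 56 bases before the start (chr10:79451095-79451344, plus strand).
Cnn2: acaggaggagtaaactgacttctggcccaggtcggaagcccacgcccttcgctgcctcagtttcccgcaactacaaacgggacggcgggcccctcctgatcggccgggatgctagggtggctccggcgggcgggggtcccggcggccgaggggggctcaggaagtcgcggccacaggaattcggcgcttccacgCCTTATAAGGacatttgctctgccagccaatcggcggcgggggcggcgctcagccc

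Cnn1 (NM_009922, plus strand, chr9:21903697-21913665, 7 exons) was 0.544 and 1.04 in NSC replicates 1 and 2 and 0.0446, 0.156 and 0.176 in the STO replicates. All STO values lay below both NSC values, which themselves differed markedly. The values stood on 33.4 and 68.7 fragments in NSCs and on 1.99, 8.00 and 11.9 in STO cells. The NSC mean of 0.791 ± 0.349 (SD, n = 2) was under 1, so Cnn1 was not tested; with no minimum its difference was -0.66 (limma, adjusted p = 0.00575). Without NSC replicate 1, Cnn1 reached the minimum through NSC replicate 2 alone, and its difference was -0.86. The Cnn1 promoter window held none of the motifs.

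Within the calponin family, Cnn2 held 12.8% and 12.5% in NSCs and 46.5%, 45.4% and 46.3% in STO cells. Cnn3, the form common to many non-muscle cells, made up the rest, and its own level did not pass the test (172 ± 10.0 against 181 ± 4.51, SD; limma, adjusted p = 0.288). The family sum was 1.70-fold higher in STO cells. Cnn1 was under 1% of the family in every sample, at 0.395% in NSCs and 0.0371% in STO cells on average.

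Caldesmon (Cald1), which blocks the binding of myosin to actin until calcium or phosphorylation releases it, had the highest level of the 10 genes in both cell types. FPKM of the gene was 40.4 and 44.5 in the NSC replicates and 189, 210 and 207 in the STO replicates. The ranges were far apart, and the means of 42.5 ± 2.93 and 202 ± 11.6 (SD) differed 4.75-fold, a difference of 2.22 ± 0.075 (SE; limma, adjusted p = 5.52e-07).

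A pair of Cald1 transcripts made up this level, and they differed in where they were listed above 0. NM_145575 starts at 34659444 on chromosome 6 and was 40.4 and 44.5 in NSCs and 130, 138 and 139 in STO cells. NM_001347100 starts 110.94 kb upstream, at 34548504, and was listed at 0 in both NSC replicates and at 58.9, 72.7 and 67.5 in the STO replicates. The upstream transcript was thus 31.2%, 34.6% and 32.7% of the summed Cald1 FPKM in STO cells and listed at 0 in NSCs. The downstream transcript was present in all samples, with its highest NSC value below its lowest STO value. The annotation gives Cald1 17 transcripts and only this pair was quantified, so the shares hold within the pair alone. A listed 0 can also be a failed estimate, and the deposited status of both transcripts was OK in every sample. The downstream start lies in intron 3 of the 14-exon annotated transcript that begins nearest the upstream start. The transcripts share most of their exons, so their separate values are estimates of how shared fragments divide, and no test was made between them. Both promoters are printed. The upstream one held an MCAT on the opposite strand 153 bases before the start (chr6:34548254-34548503, plus strand), the downstream one a TATAAA 186 bases before it (chr6:34659194-34659443, plus strand), and neither held a CArG box.
Cald1 upstream: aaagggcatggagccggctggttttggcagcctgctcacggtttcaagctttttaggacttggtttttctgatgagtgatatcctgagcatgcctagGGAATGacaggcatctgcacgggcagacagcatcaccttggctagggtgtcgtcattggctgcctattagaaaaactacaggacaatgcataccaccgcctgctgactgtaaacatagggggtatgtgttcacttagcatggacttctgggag
Cald1 downstream: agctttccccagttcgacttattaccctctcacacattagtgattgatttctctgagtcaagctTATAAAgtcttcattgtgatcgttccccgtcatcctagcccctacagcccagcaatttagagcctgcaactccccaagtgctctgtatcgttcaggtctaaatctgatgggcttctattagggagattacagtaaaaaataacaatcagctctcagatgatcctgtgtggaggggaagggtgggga

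Actn1, which encodes alpha-actinin-1, crosslinks actin filaments at dense bodies, stress fibers and focal adhesions. Its locus lies on the minus strand at chr12:81268529-81361368. FPKM was 6.52 and 8.99 in NSC replicates 1 and 2, and 115, 125 and 118 in STO replicates 1, 2 and 3. The STO replicates were all above the NSC replicates, although the latter were not close to each other. Means were 7.75 ± 1.75 and 119 ± 5.32 (SD), 15.4-fold apart, and the difference was 3.79 ± 0.122 (SE; limma, adjusted p = 4.49e-07).

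Both Actn1 transcripts had larger values in STO cells. NM_134156 was 5.57 and 6.49 in NSCs and 77.7, 91.1 and 79.5 in STO cells, and NM_001346669 was 0.946 and 2.50 in NSCs and 37.0, 33.9 and 38.3 in STO cells. The share of NM_001346669 was 14.5% and 27.8% in NSCs and 27.1% to 32.5% in STO cells, so these ranges overlapped. Of the alpha-actinins, Actn1 held 12.4% and 15.6% in NSCs and 44.8%, 46.5% and 44.2% in STO cells, next to Actn4, the other non-muscle form, which rose from 47.2 ± 1.80 to 142 ± 3.86 (SD; limma, adjusted p = 6.95e-07). Actn3, a skeletal muscle form, rose from 0.0527 to 2.72, Actn2, the form of heart and skeletal muscle, was 0.224 and 0.0973 in NSCs and listed at 0 in STO cells, and the family as a whole was 4.78-fold higher in STO cells. The Actn1 window, whose start lies 8 bases from that of NM_134156, held none of the motifs and is printed without capitals (chr12:81361351-81361600, minus strand).
Actn1: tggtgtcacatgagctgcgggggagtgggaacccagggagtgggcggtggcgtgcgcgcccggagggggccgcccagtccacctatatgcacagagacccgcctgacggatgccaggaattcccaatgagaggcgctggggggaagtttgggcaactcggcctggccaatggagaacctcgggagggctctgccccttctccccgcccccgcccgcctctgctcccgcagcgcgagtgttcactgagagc

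**Figure D2:**
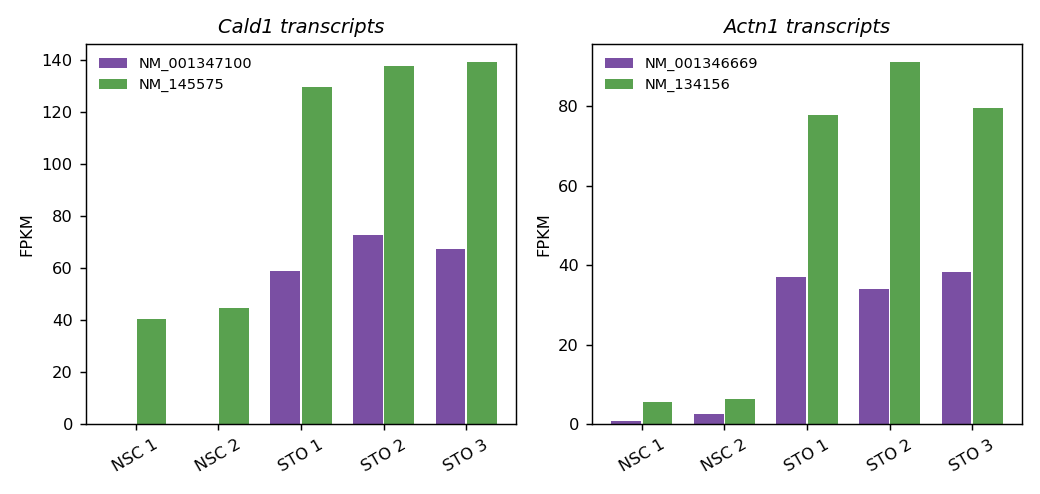
FPKM of the Cald1 and Actn1 transcripts in each sample, as bars from 0, with a separate axis for each gene. The upstream Cald1 transcript NM_001347100 is at 0 in both NSC replicates and at 58.9 to 72.7 in STO cells, and both Actn1 transcripts are higher in STO cells.

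Myh11 encodes the heavy chain of smooth muscle myosin, the most specific marker of differentiated smooth muscle, and was close to the limit of detection. Its locus is chr16:14194620-14291501 on the minus strand. FPKM was 0.0386 and 0.0132 in the NSC replicates and 0.128, 0.135 and 0.185 in the STO replicates. These values stood on 6.36 and 2.13 fragments in NSCs and on 18.1, 21.9 and 40.1 in STO cells, all of them on NM_001161775, while NM_013607 was listed at 0 throughout. The STO values were all above the NSC values, but Myh11 was not tested; with no minimum its difference was 0.16 (limma, adjusted p = 0.00416). Its means of 0.0259 and 0.149 stood beside 41.4 and 179 for Myh9, so smooth muscle myosin was 0.0291% of these heavy chains in NSCs and 0.0614% in STO cells. Of the Myh11 transcript, 0.395% of 50-base stretches were shared with other genes, most often Myh9.

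The nonmuscle heavy chains, which form the myosin of stress fibers and of the cell cortex, differed more widely. Myh9 went from 46.2% to 73.2% of the family, Myh10 from 47.0% to 26.7% and Myh14 from 6.77% to 0.000975%. In level, Myh9 was 41.4 ± 0.263 in NSCs and 179 ± 11.1 in STO cells, and Myh10 42.2 ± 1.72 and 65.2 ± 2.70 (SD), both higher in STO cells (limma, adjusted p = 4.31e-07 and 9.76e-05). Myh14 fell from 6.08 ± 0.332 to 0.00231 ± 0.0040 (SD). Its STO value and share rested on 0.494 implied fragments in replicate 1 and a listed 0 in replicates 2 and 3. The sum over the 4 heavy chains was 2.72-fold higher in STO cells.

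Myl9, the regulatory light chain that is found with smooth muscle myosin and also with nonmuscle myosin, was the only contractile gene that fell among the 6 tested. NM_172118 lies on the plus strand at chr2:156601200-156607393. FPKM was 11.2 and 11.9 in the NSC replicates and 4.54, 3.46 and 4.03 in the STO replicates. All STO replicates were below both NSC replicates, with means of 11.6 ± 0.483 and 4.01 ± 0.539 (SD), 2.88-fold lower in STO cells. The difference was -1.33 ± 0.098 (SE; limma, adjusted p = 2.44e-05), and 1914 tested genes had a larger fall. Its promoter held a strict CArG box 161 bases before the start and a relaxed one 99 bases before it (chr2:156600950-156601199, plus strand).
Myl9: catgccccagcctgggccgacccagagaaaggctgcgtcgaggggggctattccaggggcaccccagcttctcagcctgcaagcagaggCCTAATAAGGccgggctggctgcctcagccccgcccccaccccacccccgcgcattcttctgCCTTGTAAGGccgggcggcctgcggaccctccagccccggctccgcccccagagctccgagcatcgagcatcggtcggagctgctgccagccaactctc

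The other regulatory light chains moved in both directions. Myl12a rose from 78.8 ± 1.63 to 222 ± 7.96 and Myl12b fell from 107 ± 7.50 to 78.4 ± 5.06 (SD; limma, adjusted p = 1.07e-06 and 0.00174). Myl9 therefore went from 5.51% and 6.22% of the regulatory light chains in NSCs to 1.32% ± 0.165 (SD, n = 3) in STO cells, and Myl12a from 39.9% to 73.0% on average, and the family sum was 1.54-fold higher in STO cells.

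Mylk encodes myosin light chain kinase, which phosphorylates Myl9 and its relatives. FPKM was 0.639 and 0.617 in the NSC replicates and 0.738, 0.674 and 0.793 in the STO replicates. The ranges did not overlap, yet they lay close together, at 0.628 ± 0.0158 and 0.735 ± 0.0599 (SD). Mylk was not tested, and with no minimum its difference of 0.09 did not pass (limma, adjusted p = 0.0981). The value comes from NM_139300 (chr16:34785036-35002520, plus strand), 1 transcript of a gene for which the annotation gives 4. The window at its start held an MCAT 158 bases upstream.

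The replicate ranges of STO cells and NSCs did not overlap for any of the 10 genes, which was also true of 78.4% of the 17725 genes above 0 in a sample.

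The share of each gene in its protein family does not depend on how samples are scaled. With 2 against 3 samples the two-sided exact permutation test cannot give a p below 0.2, and the shares of Acta2, Actg2, Tagln, Cnn1, Cnn2, Actn1, Myh11 and Myl9 all reached that value. For Acta2, Tagln, Cnn2 and Actn1 the share rose by 1.68, 7.94, 33.4 and 31.2 percentage points, and that of Myl9 fell by 4.55.

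**Figure D3:**
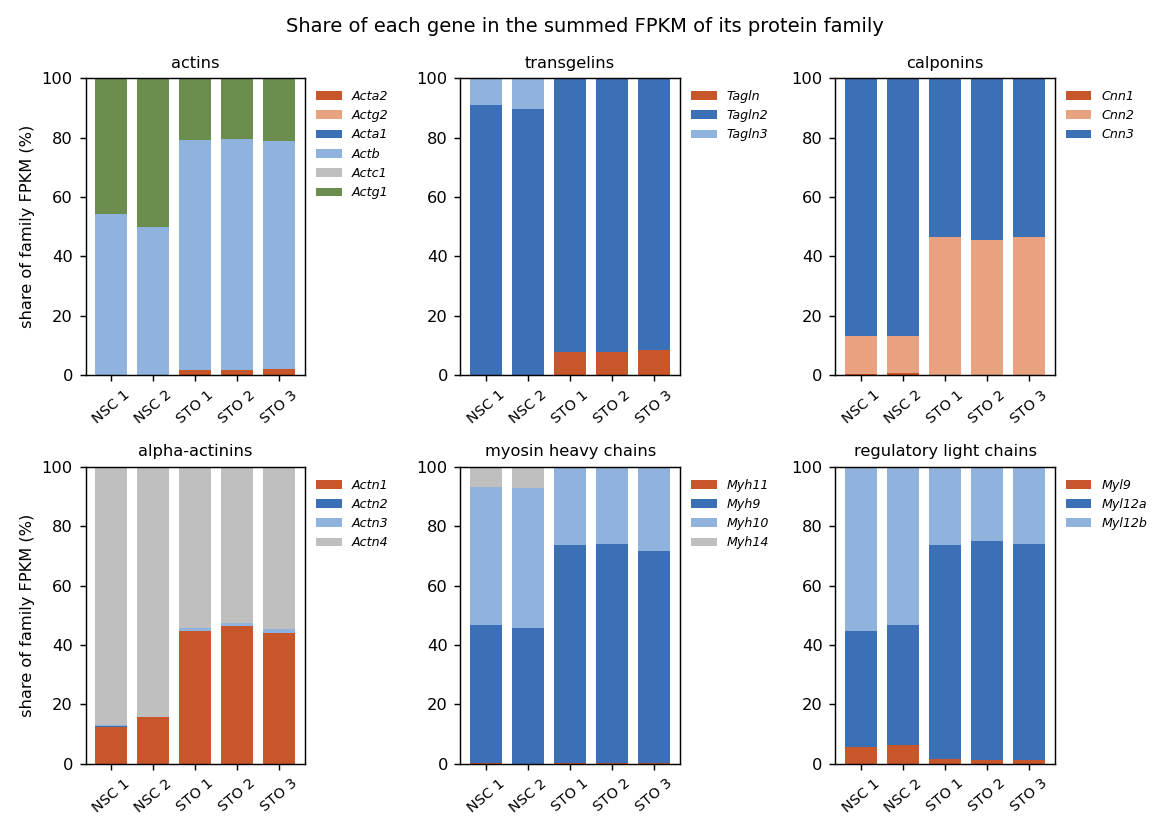
Share of each gene in the summed FPKM of its protein family, in percent, stacked to 100 for each of the 2 NSC and 3 STO replicates; contractile genes of the set are in red and orange and the other family members in other colors. Cnn2 and Actn1 grow to 45.4% or more and 44.2% or more of their families in STO cells, while Myl9 shrinks and Myh11 and Actg2 are too small to be seen.

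Of the 8 promoter windows, 2 held a strict CArG box (Cnn2 and Myl9), 3 at least a relaxed one (Acta2 in addition), 3 an MCAT (Acta2, Cald1 upstream and Mylk) and 1 a TATAAA (Cald1 downstream). Among all 32851 windows of the reference, these motifs occurred in 1.63%, 9.98%, 14.7% and 13.6%. The windows of Actn1 and Cnn1 held none. A match describes letters in the window and not a bound site.

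**Figure D4:**
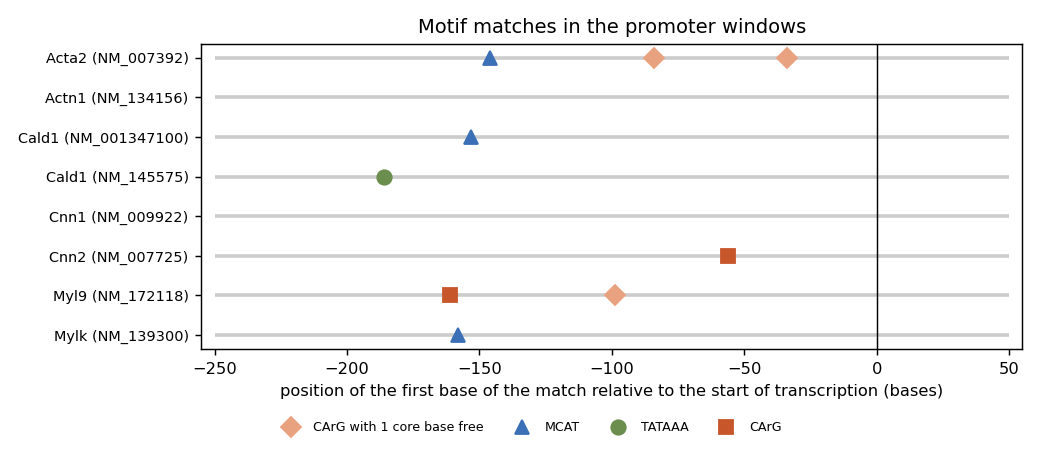
Positions of motif matches in 8 promoter windows of 7 contractile genes, in bases relative to the start of transcription at 0; symbols mark the motif, and a relaxed CArG that is also strict is drawn once. Strict CArG boxes lie at -56 in Cnn2 and -161 in Myl9, and the windows of Actn1 and Cnn1 are empty.

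Regulators of these genes were examined in a list of 13 genes for SRF, its cofactors and other factors of the smooth muscle program. Of 11 tested, 6 were higher, 2 lower and 3 not past the threshold, beside 41.9% higher and 43.7% lower of all genes tested, and the other 2, Myocd and Gata6, were listed at 0 in every sample. Srf was 10.9 and 11.4 in the NSC replicates and 25.3, 23.8 and 23.9 in the STO replicates, with a difference of 1.06 (limma, adjusted p = 4.50e-06). Of the myocardin-related factors, Mrtfa rose from 8.27 ± 0.943 to 14.9 ± 0.617 and Mrtfb was 8.36 ± 0.416 and 7.56 ± 0.658 (SD; limma, adjusted p = 0.000113 and 0.167). Myocardin itself, the coactivator most restricted to smooth and cardiac muscle, was thus not detected where Srf and Mrtfa were higher.

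Klf4, a factor known to repress smooth muscle genes, had the largest difference of the list, 4.39, from 1.46 ± 0.0116 to 50.6 ± 1.53 (SD; limma, adjusted p = 7.87e-09). Tgfb1i1 (Hic-5), a focal adhesion protein that also acts as a nuclear coactivator, rose from 2.09 ± 0.149 to 12.4 ± 0.576, and Tead1, which binds MCAT elements, from 24.3 ± 0.908 to 39.0 ± 3.04 (SD). Elk1, which competes with myocardin for SRF, was 11.4 and 13.4 on average, a difference of 0.22 that passed the test (limma, adjusted p = 0.00643). Mef2c fell from 6.50 ± 0.0172 to 1.66 ± 0.183, and Hey2 from 1.51 ± 0.0887 to 0.00967 ± 0.0089. Elk4 and Foxo4 did not pass the test, at 7.21 and 7.85 and at 10.8 and 12.1 on average.

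Among 23 genes of light chain phosphorylation, 21 were tested, with 8 higher, 7 lower and 6 not past the threshold. Over all genes tested these shares were 41.9% and 43.7%, and the median difference was 0.09 for the list and -0.02 for all genes. Ppp1cb, the catalytic subunit of myosin phosphatase, rose from 37.2 ± 1.75 to 99.8 ± 8.17, and Arhgef1, an exchange factor for RhoA, from 12.1 ± 0.189 to 32.9 ± 2.15. Ppp1r12b, a targeting subunit of the phosphatase, fell from 8.55 ± 0.181 to 1.68 ± 0.227, and Ppp1r14c, an inhibitor of the phosphatase, from 22.0 ± 0.647 to a listed 0 in all STO replicates (SD). The split of this list moved with the scaling: with equal sums per sample, 12 were higher and 7 lower.

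Of 30 thin filament, dense body and adhesion genes, 25 were tested, 18 were higher, 6 lower and 1 not past the threshold, beside 41.9% higher and 43.7% lower of all genes tested. Their median difference was 1.46, against -0.02 over all genes tested. This list, like the others, was chosen with earlier results of these data known, so its median and counts are a description. Flna, the actin crosslinker filamin A, rose from 16.1 ± 0.466 to 241 ± 8.46. Fhl2, a LIM protein that is itself an SRF target, rose from 1.48 ± 0.0952 to 35.0 ± 1.44, and Filip1l from 0.208 ± 0.0794 to 26.7 ± 1.05. Its relative Fhl1 went the other way, from 68.3 ± 1.09 to 3.13 ± 0.548 (SD). Under the other scalings, 17 or 18 genes of the list were higher and 5 or 6 lower; Hspb6 and Ilk lost their calls under 2 of the 3.

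Of 12 genes of calcium handling and channels of smooth muscle, 7 were tested, with 3 higher, 3 lower and 1 not past the threshold, beside 41.9% and 43.7% of all genes tested. Under median ratio scaling and quantile normalization, 4 were lower. Stim1, the calcium sensor of the endoplasmic reticulum, rose from 4.90 ± 0.0478 to 13.6 ± 0.238. The channel genes Kcnma1 and Cacna1c fell from 5.67 ± 0.441 to 0.0526 ± 0.00491 and from 2.92 ± 0.142 to 0.225 ± 0.0653, and Trpc1 from 2.11 ± 0.403 to a listed 0 (SD). Cacna1c, a voltage-gated calcium channel gene, was thus higher in NSCs. Kcnma1, Cacna1c and Trpc1 reached the minimum FPKM in NSCs alone, so their calls are descriptions. Of the 18 listed paralogs of the contractile genes, 17 had a value and 12 were tested. Of those tested, 6 were higher, 5 lower and 1 not past the threshold, beside the same shares of all genes. The values of the paralogs stand with the families above, except Mylk2 and Mylk3, which had mean FPKM under 1 in both cell types.

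**Figure D5:**
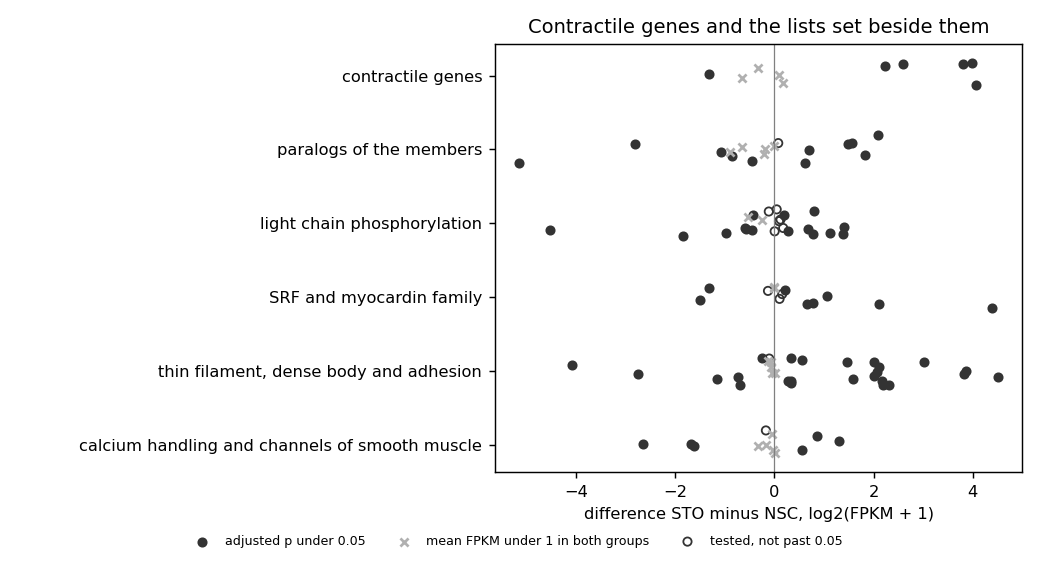
Difference between STO cells and NSCs on the log2(FPKM + 1) scale for the 10 contractile genes and for 5 lists set beside them, where each point is a gene. Filled points passed an adjusted p of 0.05 in limma, open points were tested and did not pass, and crosses mark genes with a mean FPKM under 1 in both cell types; 5 contractile genes lie above 2 and Myl9 lies at -1.33, and the thin filament list leans to higher values in STO cells.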

How the data were processed

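RNA-seq was compared between 2 NSC and 3 STO replicates, grouped by their labels. By the study's methods, stranded mRNA libraries were read as paired ends, trimmed, aligned to mm9 with Hisat2 and quantified on the RefSeq annotation, for which the submitters' notes name Cufflinks 2.2.1. The authors deposited FPKM values and their confidence intervals for 40201 transcripts, with depth and transcript length already divided out.

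Of these, 39946 transcripts (99.4%) were given symbols through their RefSeq identifiers with a table made for GRCm38.p6, and FPKM was summed per gene over overlapping loci. All 13 transcripts of the contractile genes had the status OK. Fragments were implied from each interval, taking the distance to its upper bound as 2 standard deviations of a Poisson count. For a gene with several transcripts, the interval also holds the uncertainty of dividing fragments between them, so the implied number is too low there: Actg1, with 2 transcripts, had 2155 in STO replicate 1 at an FPKM of 609, and Actb, with 1, had 96106 at 2255. A linear model of log2(FPKM + 1) was fitted with limma 3.58.1 to every gene whose mean FPKM reached 1 in either cell type. The fit was moderated with a mean-variance trend, in R 4.3.3. It had first been run on simulated data with 200 changed genes. That is far fewer than were called here, so the simulation does not cover a comparison in which most genes differ. P-values were adjusted by Benjamini-Hochberg over all genes fitted, and the threshold was 0.05. Differences on this scale understate those of low genes. Shares within families were compared by an exact permutation test. Other steps ran in Python 3.11.15 (scipy 1.17.1, pandas 2.3.3, matplotlib 3.10.9). Gene structures came from GENCODE on NCBIM37, and 0 of 40014 transcripts on its chromosomes ended past them. Shared 50-base stretches were counted between annotated coding transcripts.

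Named were the 10 contractile genes, their families, the SRF list, marker genes, and up to 4 genes of each other list with the largest difference among those past the threshold without overlapping replicates. The contractile genes and the lists were chosen with earlier results of these data known. A further gene of the NSC marker list is not reported here. Alternatives changed the pseudocount (0.1), the minimum FPKM (none or 5), the scaling, the trend, the replicate block, the summing of transcripts, a minimum difference of 1 on the log2 scale and the replicates included.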

Additional observations from a re-analysis of the deposited data

How the results depend on the processing

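Acta2, Tagln, Actn1, Cnn2, Cald1 and Myl9 kept their direction in all 13 alternatives. They stayed past the threshold wherever both cell types kept more than 1 replicate. Tagln, listed at 0 in both NSC replicates, could not change direction, so its result is a description. In the order named, differences were 3.94 to 4.46, 4.03 to 7.31 (the highest with a pseudocount of 0.1, against 4.07 with 1), 3.59 to 3.998, 2.55 to 2.76, 2.15 to 2.39 and -1.51 to -1.18. Without the minimum FPKM, 3 contractile genes were lower instead of 1, since Actg2 (-0.34) and Cnn1 (-0.66) then entered the test and passed, as did Myh11 (0.16) among the higher. Leaving out 1 STO replicate at a time left 1 contractile gene lower. The Cnn1 difference was -0.86 without NSC replicate 1, where Cnn1 reached the minimum through NSC replicate 2 alone, and -0.46 without NSC replicate 2. With 1 NSC replicate left, that sample was assumed to vary like the STO replicates. Tested transcript by transcript, 7 transcripts of the contractile genes were higher, both of Cald1 and both of Actn1 among them, and 1 was lower. Over all transcripts, 6200 were higher and 6340 lower. The Tagln transcript and the upstream Cald1 transcript were listed at 0 in both NSC replicates. They reached the minimum FPKM in STO cells alone, so their calls are descriptions. A minimum log2 difference of 1 reduced the higher genes from 5153 to 2103 and the lower ones from 5375 to 2617. By implied fragments, which are not per length and too low for genes of several transcripts such as Actg1, the gain in share was 2.74 percentage points for Acta2, 7.15 for Tagln, 31.8 for Cnn2 and 35.6 for Actn1. Equal sums per sample moved the median difference of all genes from -0.02 to 0.13. Replicate numbers are shared by the labels, but nothing pairs the samples: deviations from the group means correlated at 0.0075 and 0.061 for the same number and at -0.061 to 0.050 for different numbers. A fit with this number as the block called 4994 genes higher and 5250 lower in STO cells, and no call among the contractile genes changed. Few fragments lay behind Actg2 and Cnn1 in STO cells and behind Myh11, which limits their precision.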
